A study of Mus musculus with 9 samples.

Results

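Of the 5281 circular RNAs (circRNAs) counted in the sorted cells of the E14.5 mouse cortex, 14 arise from 3 genes for cell surface receptors of neural progenitors: 2 from Ptprz1, 6 from Fgfr2 and 6 from Gpr98, also called Adgrv1. They were chosen as all circRNAs on the strand and within the span of these genes in mm9, around both circRNAs of Ptprz1 and one each of Fgfr2 (CiCo_mm9_circ_005757) and Gpr98 (CiCo_mm9_circ_001695). Falls between cell types in these genes were already known, so that their levels are given here as a description and without p-values. In the annotation used, a single overlong transcript of Fgfr2 covers another 9 entries with their ends at exons of Ate1, Fam53b, Mettl10 and Ctbp2, which were not taken as Fgfr2. The cells came from the lateral cortex of C57BL/6 embryos of a double reporter line, heterozygous for RFP under the Btg2 promoter and GFP under that of Tubb3. Cells with neither reporter were taken as proliferative progenitors (PP), those with RFP but not GFP as differentiative progenitors (DP), and those with GFP, whether or not with RFP, as newborn neurons (N). Each population gave 3 libraries of total RNA treated with RNase R, which digests linear RNA.

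A circRNA forms when the end of an exon is spliced back to the start of the same or an earlier exon, and the ring that results has no free ends for exonucleases. Ptprz1 codes for a receptor tyrosine phosphatase of radial glia, the stem cells of the cortex, that carries chondroitin sulphate and binds pleiotrophin and contactins. Fgfr2 codes for a receptor tyrosine kinase for fibroblast growth factors, which maintain progenitors, and Gpr98 for a very large adhesion G protein-coupled receptor with many calcium-binding repeats, known for its loss in Usher syndrome.

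Below, each circRNA is named by its gene and its first and last exon, counted along the reference transcript (30 exons in Ptprz1, 18 in Fgfr2 and 90 in Gpr98). The junctions of 8 circRNAs show how they are built, and read 5′ to 3′ the last 20 bases before the backsplice in lower case and the first 20 bases after it in capitals. They were assembled here from the mm9 genome at the ends of the annotated exons and not from sequenced reads. The study required no minimum of reads across a backsplice junction, and how many such reads each circRNA had was not examined here.
circPtprz1(12-14), CiCo_mm9_circ_005387, chr6:22949200-22966230, plus strand: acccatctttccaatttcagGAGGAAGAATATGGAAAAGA
circPtprz1(14-17), CiCo_mm9_circ_005390, chr6:22966139-22975041, plus strand: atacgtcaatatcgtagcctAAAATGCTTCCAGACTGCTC
circFgfr2(3-4), CiCo_mm9_circ_005757, chr7:137384714-137386158, minus strand: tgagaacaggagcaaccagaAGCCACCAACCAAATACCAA
circFgfr2(3-6), CiCo_mm9_circ_005754, chr7:137362512-137386158, minus strand: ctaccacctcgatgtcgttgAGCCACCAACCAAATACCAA
circFgfr2(4-6), CiCo_mm9_circ_005752, chr7:137362512-137384791, minus strand: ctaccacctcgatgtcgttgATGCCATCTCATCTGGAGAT
circGpr98(64-74), CiCo_mm9_circ_001695, chr13:81557995-81583577, minus strand: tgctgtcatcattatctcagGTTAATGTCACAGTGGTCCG
circGpr98(22-24), CiCo_mm9_circ_001697, chr13:81678958-81683643, minus strand: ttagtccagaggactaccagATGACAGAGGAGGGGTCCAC
circGpr98(21-22), CiCo_mm9_circ_001698, chr13:81683467-81696322, minus strand: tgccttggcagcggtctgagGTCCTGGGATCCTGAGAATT

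The first Fgfr2 junction has its capitals in common with the second, since both rings start at exon 3, and the second has its lower-case part in common with the third, since both end at exon 6. The other Fgfr2 circRNAs are circFgfr2(5-6), CiCo_mm9_circ_005751 at chr7:137362512-137372306, circFgfr2(4-5), CiCo_mm9_circ_005755 at chr7:137372137-137384791, and circFgfr2(3-5), CiCo_mm9_circ_005756 at chr7:137372137-137386158. The other Gpr98 circRNAs are circGpr98(80-83), CiCo_mm9_circ_001693 at chr13:81513181-81525960, circGpr98(79-83), CiCo_mm9_circ_001694 at chr13:81513181-81530799, and circGpr98(44-45), CiCo_mm9_circ_001696 at chr13:81633573-81635366. Exon 4 of Fgfr2, in capitals, lies in 5 of the 6 circRNAs of its gene, while exon 3, in lower case, lies in 3 of them and separates 2 sets of reads compared further on.
Fgfr2 exon 4, chr7:137384714-137384791, minus strand: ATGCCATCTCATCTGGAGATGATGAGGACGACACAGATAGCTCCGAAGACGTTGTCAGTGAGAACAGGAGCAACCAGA
Fgfr2 exon 3, chr7:137385892-137386158, minus strand: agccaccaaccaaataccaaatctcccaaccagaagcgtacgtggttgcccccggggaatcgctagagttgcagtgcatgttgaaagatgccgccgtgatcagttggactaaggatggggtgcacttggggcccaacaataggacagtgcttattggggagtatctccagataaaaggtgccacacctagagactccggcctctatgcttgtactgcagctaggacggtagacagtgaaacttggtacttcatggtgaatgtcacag

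**Figure D1:**
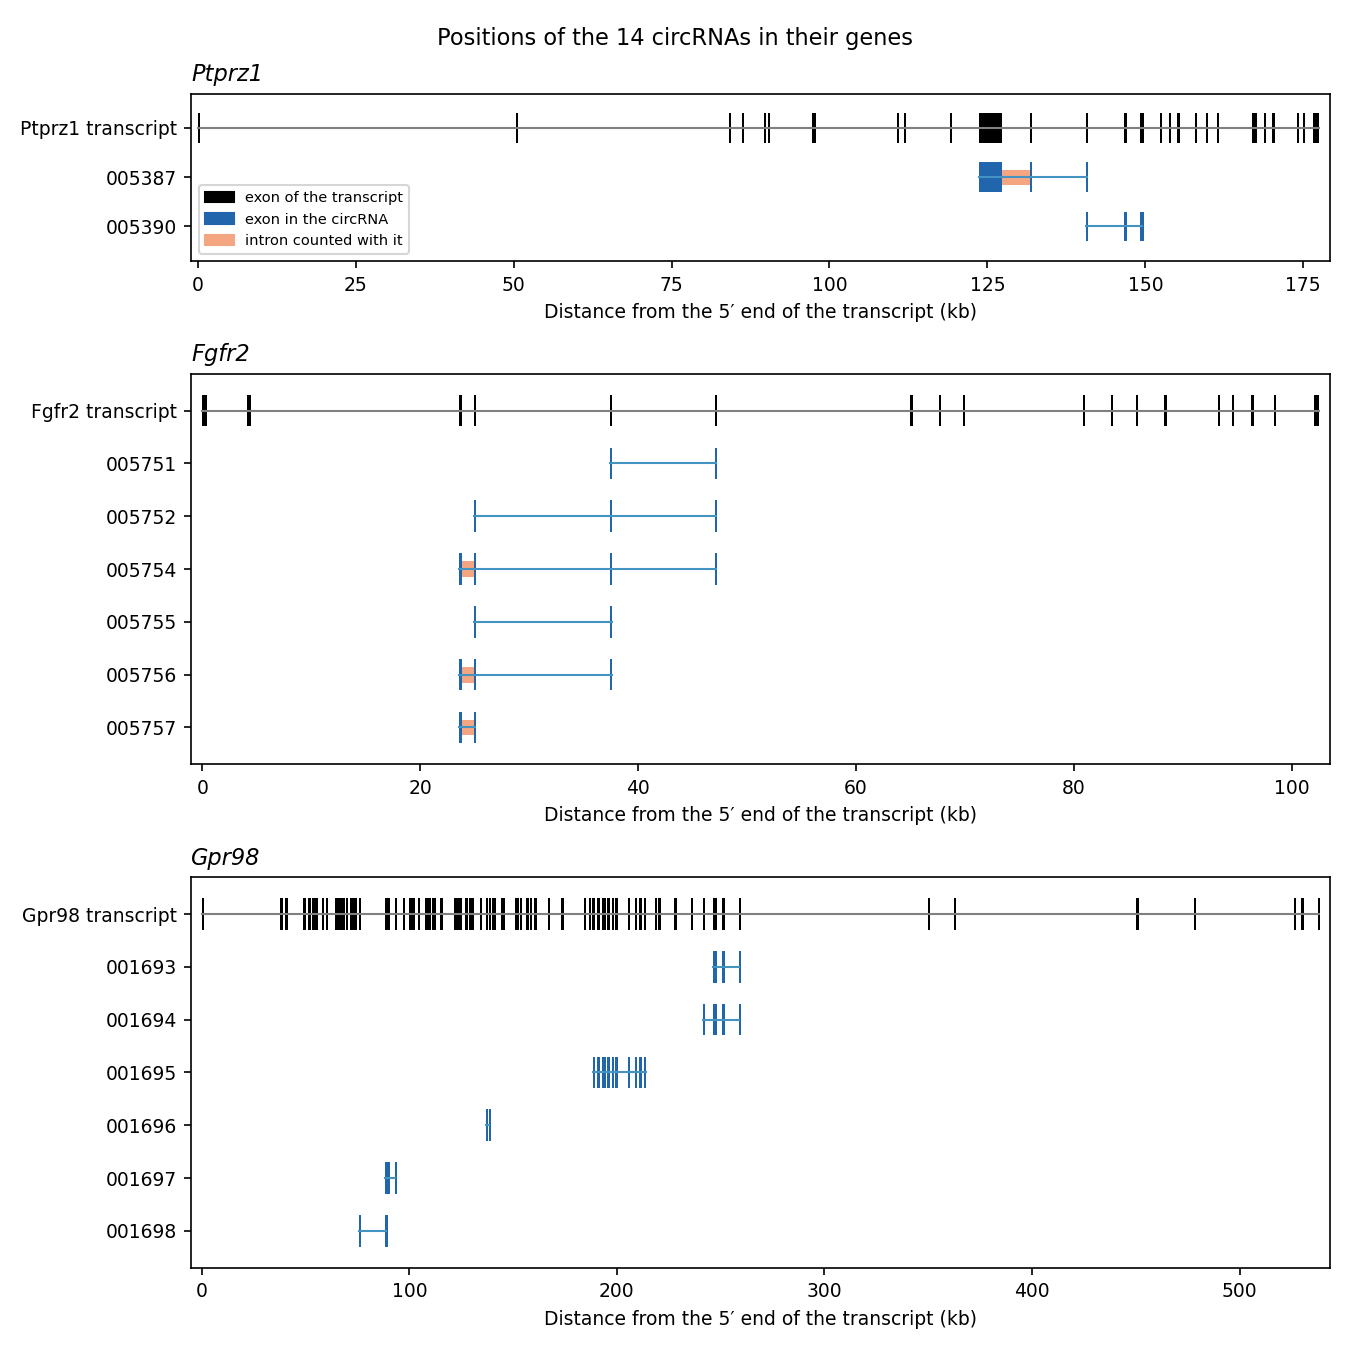
Exons of the reference transcript (black), exons within each circRNA (blue) and introns counted with it (orange), by distance from the 5′ end of the transcript in kb. Short exons are drawn at a minimum width to be visible. The Fgfr2 circRNAs overlap in exons 3 to 6, while those of Gpr98 lie at 4 separate places of the gene.

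All 14 circRNAs consist of coding exons, and none holds untranslated sequence. circPtprz1(12-14) holds 3784 exonic bases, or 54.6% of the coding sequence of its transcript, because exon 12 alone has 3547 bases. This long exon codes for much of the extracellular part of the receptor that carries chondroitin sulphate. circPtprz1(14-17) has 296 bases in 4 exons and begins with the exon that ends the larger ring. The Fgfr2 circRNAs are built from exons 3 to 6 only, which code for the first immunoglobulin loop (exon 3), the acid box (exon 4) and the second loop (exons 5 and 6) of the extracellular part. Exon 3 is alternative and is present in 6 of the 20 protein-coding transcripts that span these exons, exon 4 in 11, and exons 5 and 6 in 17 each. circGpr98(64-74) joins 11 exons with 3217 bases (17% of the coding sequence), and the other 5 circRNAs of Gpr98 have between 301 and 837 exonic bases.

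The deposited lengths show that introns were counted for 4 of the 14. A 4527-base intron makes up 54.5% of the counted length of circPtprz1(12-14). The 1100-base intron between exons 3 and 4 of Fgfr2 makes up 76.1% of the counted length of circFgfr2(3-4), 68.0% of circFgfr2(3-5) and 63.1% of circFgfr2(3-6). A count stands for all reads on these exons and introns and not only for those across the backsplice junction.

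The study designed divergent primers for both Ptprz1 circRNAs, which point away from each other on the linear transcript and meet only on a ring. They are shown because they mark sequences on either side of the junction, and whether they amplified was not examined here.
circPtprz1(12-14) forward: TTGGAGAAAATGCTTCCAGA
circPtprz1(12-14) reverse: CCAGGATTCAAGCCAGTGTC
circPtprz1(14-17) forward: ACAGCAGACAGCTCCAATCA
circPtprz1(14-17) reverse: TTGGAAAGATGGGTGTTGGT
Matched here to the rings, the first pair would give a product of 148 bases across the junction of the 3784-base ring and the second pair one of 150 bases across that of the 296-base ring. Primers for cloning both circRNAs are also listed by the study, each with a larger and a smaller expected size, and the smaller ones equal the exonic rings. The list is longer than the set of circRNAs that the study describes as cloned. Whether both Ptprz1 circRNAs belong to that set was not established here.

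Libraries held between 2962787 and 8015311 counts, but 27 entries together took 94.7% to 98.2% of them. These were picked as any Cdk8 entries with very high counts and all entries of a short stretch of a single chromosome, whatever their counts. Per library 83572 to 287983 counts remained, of which 116 to 1313 fell on the 14 circRNAs. PP replicate 3 and N replicate 1 had the fewest remaining counts of their cell types and stood apart from their replicates (Spearman's rho over circRNAs, which are not independent, was 0.707 and 0.717 for PP replicate 3, 0.797 and 0.834 for N replicate 1, and between 0.923 and 0.949 for the other pairs of replicates). Levels are given as CPM, the count scaled to the size of the library with edgeR's TMM method, and RPKM is CPM per kb of counted length. Listed markers differed between the sorted populations in the direction of their labels. Summed CPM of the 4 radial glial genes with a circRNA (Gli3, Notch1, Notch2 and Prom1, of 16 listed) was 204 to 230 in PP, 99.3 to 117 in DP and 7.20 to 13.7 in N. That of 7 neuronal genes of 17 listed was 8.06 to 20 in PP, 59.4 to 84.8 in DP and 332 to 414 in N. Of the DP markers, Elavl4 and Mfng had circRNAs, with 16.4 to 38.1 CPM in PP, 56.9 to 63.7 in DP and 13.2 to 20.4 in N, while Eomes and Btg2 have no entry. Of 8 interneuron genes only Erbb4 had circRNAs (0 to 2.32 CPM in PP, 0 to 0.248 in DP and 3.45 to 6.74 in N), and no marker of endothelium, microglia or oligodendrocyte precursors had an entry. The part that these shares have in the levels below was not tested, and in sorted bulk RNA fewer cells of a type and less RNA per cell cannot be told apart.

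The Ptprz1 circRNAs had lower means in DP than in PP and higher means again in N. circPtprz1(12-14) had 2562 counts in all and lay above 98.4% of all entries by CPM, although above only 45.0% per length. Its level was 84.3, 90.9 and 59.0 CPM in PP replicates 1 to 3, 23.9, 33.5 and 18.7 CPM in DP, and 30.1, 63.7 and 48.6 CPM in N. Every PP library lay above every DP library, whereas N spanned the gap and overlapped both. On average it had 78.1 CPM ± 16.9 in PP, 25.4 ± 7.50 in DP and 47.4 ± 16.8 in N (SD, n = 3 libraries each, as throughout), which put PP 3.08-fold over DP and N 1.87-fold over DP. The fitted log2 fold change (FC; edgeR) was -1.62 ± 0.36 (SE) from PP to DP, 0.91 ± 0.35 from DP to N and -0.71 ± 0.35 from PP to N. With 1 library left out the value from PP to N was between -0.47, without N replicate 1, and -0.97, without N replicate 2.

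circPtprz1(14-17) had the same order of means at far fewer counts, 191 in all. It had 20, 30 and 3 counts in PP, 22, 20 and 11 in DP, and 4, 51 and 30 in N, or 3.81 CPM ± 2.10 in PP, 2.11 ± 0.642 in DP and 4.21 ± 2.17 in N. The libraries of all 3 cell types overlapped, and the lowest value of PP was that of replicate 3. The log2 FC of -0.95 ± 0.47 in the first step was followed by 1.11 ± 0.45 in the second. From PP to N it was 0.16 ± 0.45, and -0.06 without PP replicate 3, so that the order of PP and N is not settled. Per length, the smaller circRNA was at 1.28 times the level of the larger in PP (± 0.55), at 2.32 times in DP (± 0.50) and at 2.34 times in N (± 0.62). Only in PP replicate 3, at 0.655, was it the lower of the pair. These ratios divide the larger by a length that is mostly intron, and by exonic length, tried after the values had been seen, they were 0.590 ± 0.255 in PP, 1.07 ± 0.229 in DP and 1.08 ± 0.288 in N, so that which of the pair is higher depends on the length used. Because both hold exon 14, part of their reads may be the same.

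The 6 Fgfr2 circRNAs were highest in PP, lower in DP and lowest in N. For circFgfr2(3-6), the longest and the one with most counts (534), the levels were 17.9, 19.3 and 51.5 CPM in PP, 6.34, 8.38 and 8.56 CPM in DP, and 4.87, 1.98 and 2.13 CPM in N. For circFgfr2(3-4) they were 9.34, 11.3 and 33.4 CPM in PP, 2.94, 4.81 and 3.85 CPM in DP, and 1.77, 0.697 and 1.81 CPM in N. In both, no library of one cell type overlapped with those of another, and PP replicate 3 stood far above the other PP libraries. The same held for circFgfr2(5-6), which lacks exons 3 and 4 and had 9.60, 10.8 and 21.4 CPM in PP, 4.07, 4.81 and 5.83 CPM in DP, and 3.54, 1.39 and 0.820 CPM in N.

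Mean levels of the 6 were 13.1 to 29.6 CPM in PP, 3.86 to 7.76 in DP and 1.42 to 2.99 in N. The log2 FC from PP to DP had a median of -1.71 and ranged from -1.46 ± 0.41 for circFgfr2(5-6) to -2.16 ± 0.47 for circFgfr2(3-4). From DP to N the median was -1.58, with -1.69 ± 0.46 for circFgfr2(4-5) and -1.52 ± 0.49 for circFgfr2(3-5) at its ends. In ratios of means, PP was 2.84-fold to 4.66-fold over DP and DP 2.56-fold to 2.90-fold over N. PP replicate 3 decided the size of the first step. Without it the log2 FC from PP to DP was -1.41 ± 0.31 for circFgfr2(3-4), -1.28 for circFgfr2(3-5) and -1.25 ± 0.28 for circFgfr2(3-6), and the ratios of means of the 6 were between 2.04 and 2.67.

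These 6 are not 6 independent measurements, since they share exons. circFgfr2(3-6) holds all exons and introns counted for the others, so that its having most counts says nothing about its ring. The level of a single ring cannot be read from these counts. In each of the 9 nested pairs, the inner circRNA never had more counts than the outer one in any of the 9 libraries. The counts can therefore be divided into 2 sets that share no read, those on exons 4 to 6 and those on exon 3 or the intron after it that do not touch exons 4 to 6. On exons 4 to 6 there were 46, 79 and 60 reads in PP, 41, 48 and 59 in DP, and 8, 13 and 8 in N. On exon 3 or its intron only there were 23, 41 and 51 reads in PP, 15, 20 and 10 in DP, and 3, 4 and 5 in N.

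Both sets had their highest mean in PP and their lowest in N. In the second set, reads on exon 3 (267 bases) and on its intron (1100 bases) were not separated. It made up 58.6% to 70.8% of the reads of circFgfr2(3-4) in PP and 32.3% to 57.7% in DP. Because that circRNA was one of those around which the genes were chosen, the comparison of the sets is not independent of the choice. In CPM, PP was 2.94-fold over DP on exons 4 to 6 and 6.71-fold over DP on exon 3 or its intron only, while DP was 2.81-fold and 2.07-fold over N. Without PP replicate 3, left out here after the values had been seen, PP was 2.07-fold and 3.49-fold over DP. The second set was 0.50, 0.519 and 0.85 times the first in PP, 0.366, 0.417 and 0.170 times in DP, and 0.375, 0.308 and 0.625 times in N. PP and DP did not overlap in this ratio (0.623 ± 0.197 and 0.317 ± 0.131), and N (0.436 ± 0.167) overlapped both. The study looked for predicted introns in a small set of circRNAs, for which it lists no primers of Fgfr2, and detected no intron. For reads on introns it proposes lariats, introns cut out by splicing, as a source. How many of the reads here come from rings with the intron, rings without it, lariats or linear RNA that outlasted RNase R was not tested.

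**Figure D2:**
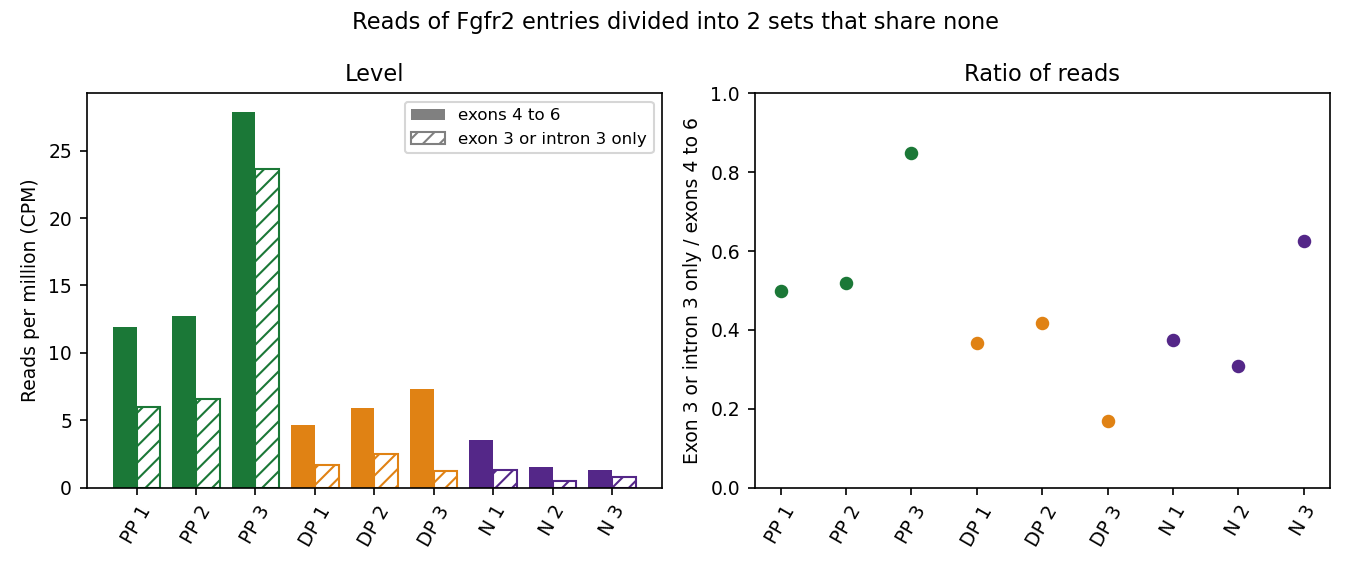
Left, reads of the Fgfr2 circRNAs on exons 4 to 6 (filled bars) and on exon 3 or intron 3 only (hatched bars) in CPM for each library, and right, the ratio of the second set to the first. Both sets had their highest mean in PP and their lowest in N, PP replicate 3 had the highest bars of all, and the ratio was 0.50 to 0.85 in PP and 0.170 to 0.417 in DP.

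Per length, the Fgfr2 circRNAs fell into 2 groups. Those without the intron had mean levels of 46.7 to 52.6 RPKM in PP, 15.9 to 17.7 in DP and 5.66 to 6.48 in N. Those counted with the intron had 12.5 to 17 RPKM in PP, 2.67 to 4.45 in DP and 0.985 to 1.72 in N. circFgfr2(4-5) lay above 93.3% of all entries per length, and the differences among the 3 circRNAs within a group were smaller than their spread between PP libraries.

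The Gpr98 circRNAs were present in both progenitors and nearly absent from N. circGpr98(64-74) was the longest and had the most counts of its gene, 379. Per length it was the lowest of its gene, at 2.29 RPKM on average over all libraries, and lay above only 10.9% of all entries. Its levels were 15.3, 18.2 and 10.7 CPM in PP, 6.00, 8.50 and 7.45 CPM in DP, and 0, 0 and 0.328 CPM in N. The lowest PP library, replicate 3, was still above the highest DP library, and only 2 reads were counted in all of N. Its means of 14.7 CPM ± 3.8 in PP and 7.31 ± 1.26 in DP differed 2.01-fold, and the log2 FC was -1.03 ± 0.35. Unlike the Fgfr2 circRNAs, it was lower in PP replicate 3 than in the other PP libraries.

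circGpr98(22-24) had the largest difference between progenitors of its gene, with 5.45, 4.68 and 7.43 CPM in PP against 1.70, 1.11 and 2.36 CPM in DP, and no count in N. The 2 cell types did not overlap, PP was 3.40-fold over DP, and the log2 FC was -1.71 ± 0.39. circGpr98(21-22), which shares exon 22 with it, had 4.67, 3.71 and 5.57 CPM in PP and 1.81, 1.6 and 2.11 CPM in DP without overlap (log2 FC -1.28 ± 0.36), and 1 count in N. The 2 circRNAs nearest the 3′ end had smaller fold changes. The log2 FC from PP to DP was -0.77 ± 0.42 for circGpr98(80-83) and -0.63 ± 0.38 for circGpr98(79-83), and their PP and DP libraries overlapped. They are close to a single measurement, since circGpr98(79-83) holds all exons of circGpr98(80-83). Whether they differ from the other circRNAs of the gene was not tested. circGpr98(44-45), with 41 counts, was too rare to pass the filter on low counts, and had 1.69 CPM ± 1.14 in PP, 0.837 ± 0.192 in DP and 1 count in N.

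Because N held 0 to 2 counts per circRNA of Gpr98, its difference from the progenitors is given from summed counts. For circGpr98(22-24) and circGpr98(80-83), without a count in N, N was set to a floor of 3 counts over its libraries. This put PP 30.6-fold and 19.4-fold higher, and DP 9.72-fold and 11.5-fold higher. For circGpr98(64-74), PP was 135-fold over N (exact 95% interval 37.0 to 1126) and DP 61.7-fold (16.8 to 513). The other 3, with 1 count in N each, had PP 26.4-fold to 73.6-fold over N and DP 14.2-fold to 41.4-fold over N, with lower limits between 2.29 and 12.7 and upper limits between 589 and 2962. The intervals cover counting error alone, and the values from the floor leave out the error of the progenitor counts.

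**Figure D3:**
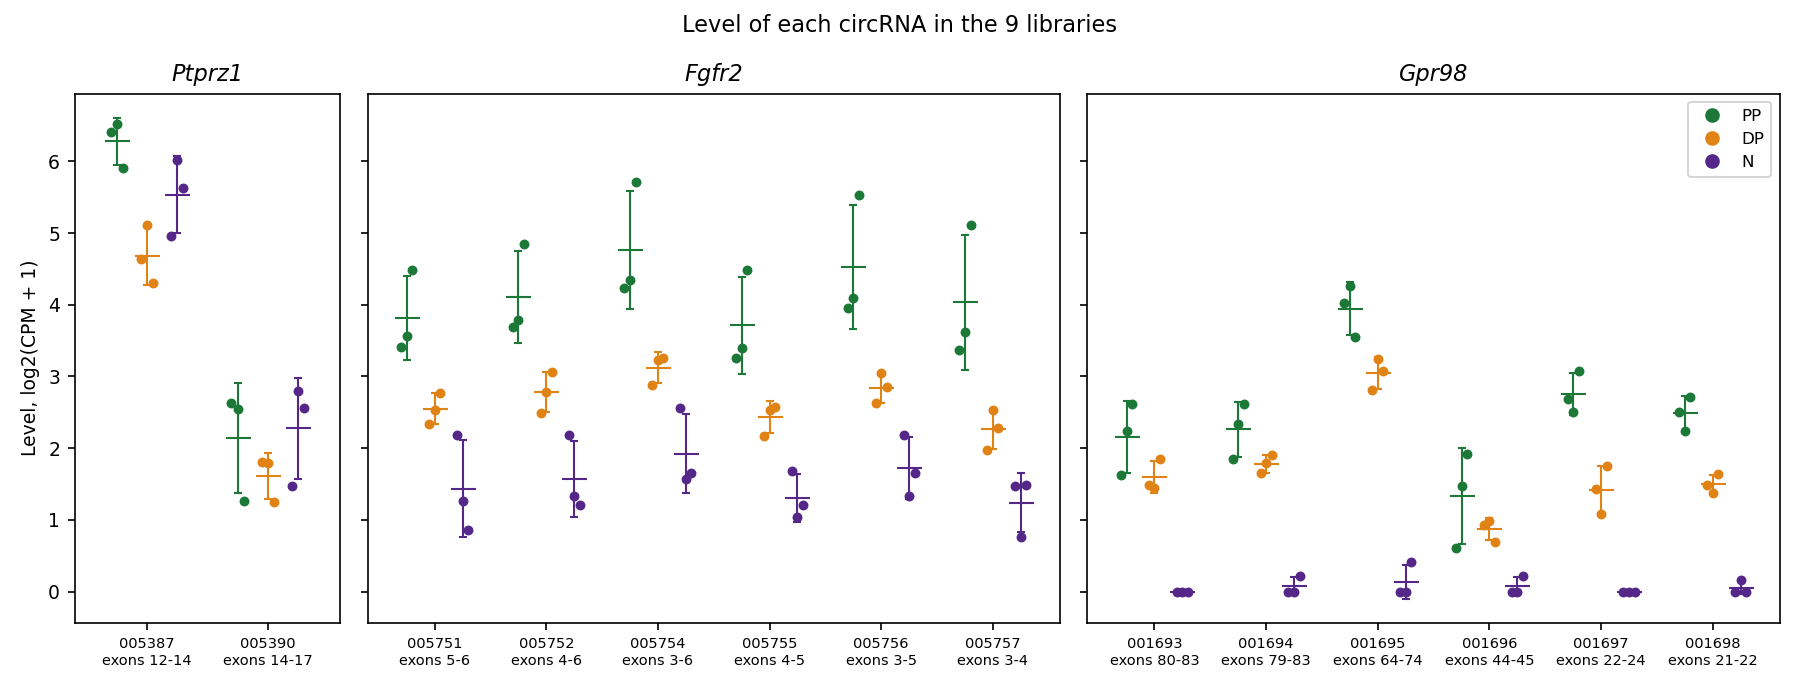
Level of each of the 14 circRNAs as log2(CPM + 1), by cell type (PP, DP and N), with a point for each library and the mean ± SD of 3 libraries. The circRNAs of Fgfr2 and Gpr98 descend from PP to DP to N, those of Gpr98 to near 0, while both of Ptprz1 are lowest in DP.

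Set side by side, the 3 genes had the same direction from PP to DP and different ones afterwards. In 10 of the 14 circRNAs, all DP libraries lay below all PP libraries (1 of Ptprz1, 6 of Fgfr2 and 3 of Gpr98), which was so for 8.73% of all entries. In 12 of the 14, all N libraries lay below all DP libraries, and in the same number below all PP libraries, against 20.4% and 18.5% of all entries. The 2 exceptions in both cases were the Ptprz1 circRNAs, which overlapped. Nothing is read from these shares, since the genes were chosen for such falls, and both steps of the lineage share the DP libraries.

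By the FC thresholds of the study (at least 1.5 or at most 0.67, without a test), both Ptprz1 circRNAs were in the class of a fall and then a rise, which held 4.30% of all entries, and the other 12 in the class of a fall in both steps, which held 7.42%. The 13 circRNAs with a fitted value had a median log2 FC of -1.51 from PP to DP, and all 4406 circRNAs tested had -0.06. The values nearest to 0 among the 13 were those of circGpr98(79-83), circGpr98(80-83) and circPtprz1(14-17), with 93 to 191 counts each.

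**Figure D4:**
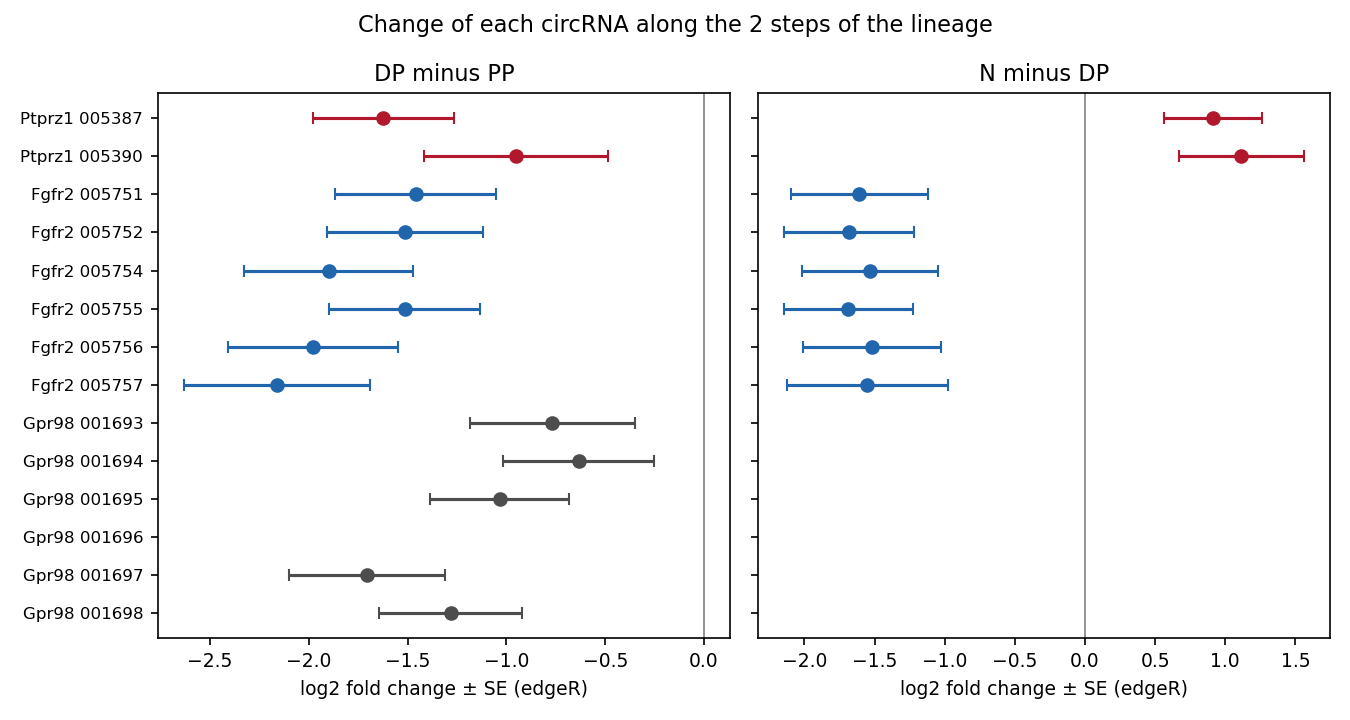
Fitted log2 FC ± SE (edgeR, 9 libraries) of 13 circRNAs from PP to DP (left) and of the 8 of Ptprz1 and Fgfr2 from DP to N (right). From PP to DP all lie below 0, from -0.63 to -2.16, and from DP to N those of Ptprz1 lie above 0 and those of Fgfr2 below. CiCo_mm9_circ_001696 passed no filter and the Gpr98 circRNAs had 0 to 2 counts in N, so that they are left out.

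What the choice of genes did not use is the ratio of 2 circRNAs of one gene to each other. A single pair qualified for a test, circGpr98(79-83) and circGpr98(21-22), which share no exon, were not the entries around which the genes were chosen, and had at least 10 counts in 6 libraries. Both passed this minimum only through the PP and DP libraries, where Gpr98 is high, and no N library held more than 1 count of either. The log2 ratio of their counts was -0.27 ± 0.49 (SD, n = 3) in PP and 0.40 ± 0.18 in DP, and 0 on average in N, where each had 1 count. Over all 9 libraries the exact permutation p was 0.693 (1680 arrangements, any difference, 1 pair tested), but the 3 ratios of N are set by the pseudocount of 0.5, so that this test says nothing about N and little about the progenitors. Between PP and DP alone, compared after the values had been seen, the ratios did not overlap, and the exact permutation p of 0.1 is the smallest that 3 libraries against 3 can give.

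In sequence features the 14 had medians near those of all circRNAs. All are preceded by AG and followed by GT in the genome, as are 99.9% of the 5097 entries with both ends in one transcript. Their median exonic length was 533 bases (all entries 451), their median exon number 3 (all entries 3) and their median GC content 49.8% (all entries 48.6%). The introns on either side summed to a median of 17374 bases (all entries 15771), with the extremes both in Gpr98, 2514 bases around circGpr98(21-22) and 96075 bases around circGpr98(79-83). Pairing between the flanking introns can help a ring to form, and the longest stretch within 1000 bases upstream whose reverse complement occurs within 1000 bases downstream had 9 to 12 bases, with a median of 11 (all entries 10). The exonic length was a multiple of 3, which keeps the reading frame around the ring, in 6 of 14 (all entries 37.8%). These are descriptions, and the overlapping Fgfr2 circRNAs count several times in them.

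For one circRNA of each gene, the entries of other genes whose log2(CPM + 1) varied most like it over the 9 libraries were found among 855 to 857 others with at least 10 CPM on average. Nearest to circPtprz1(12-14) were circRNAs of Mll3, Cdh2 and Pum2 (Pearson's r of 0.78, 0.75 and 0.74), which were also lowest in DP, with 12.5, 7.85 and 10.5 CPM in PP, DP and N for Mll3. Nearest to circFgfr2(3-4) were those of Tkt, Pea15a and C130039O16Rik (0.95, 0.94 and 0.94), all with a large spread in PP, such as 85.7 CPM ± 62.6 for Tkt. Nearest to circGpr98(64-74) were those of Sf1, Cdon and Gli3 (0.99 each). An r does not measure the size of a change, and the Sf1 circRNA changed far less, with 50 CPM in PP, 46.2 in DP and 29.4 in N. That of Cdon had 169, 89.1 and 14.5 CPM. The Gli3 circRNA, from a radial glial gene of Hedgehog signalling, had 28.7 CPM in PP, 15 in DP and 1.81 in N. Among themselves the 3 had an r of 0.80 between Fgfr2 and Gpr98, 0.38 between Ptprz1 and Fgfr2 and 0.20 between Ptprz1 and Gpr98. Libraries share their scaling and depth, and PP replicate 3 weighs on the values of Fgfr2.

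Genes around these receptors were examined from lists, chosen with earlier results of these data known, in edgeR's quasi-likelihood test with Benjamini-Hochberg adjustment over all 4406 circRNAs. The background was 1.86% of all tested circRNAs for DP against PP, with 1.48% above and 0.386% below. For N against DP it was 18.8%, with 9.03% above and 9.80% below, and for N against PP 28.1%, with 13.7% above and 14.4% below. The 65 circRNAs of the lists, without those of the 3 genes, had 1 higher and 0 lower in DP than in PP, 7 higher and 11 lower in N than in DP, and 8 higher and 14 lower in N than in PP. In both comparisons with N, 9 of the lower ones were overlapping circRNAs of Magi1. The median log2 FC of the 65 was 0.07, -0.05 and -0.08, and that of all circRNAs tested was -0.06, -0.02 and -0.09. Without PP replicate 3, the counts from DP to N and from PP to N were 29 and 33. With scaling by total counts, 5 were higher and 11 lower in N than in DP, and 4 higher and 11 lower in N than in PP.

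None of 21 other genes listed for FGF receptors, their ligands and co-receptors had a circRNA in the table, though the list does not hold every FGF ligand. Neither did any of 12 names of the Usher protein complex that holds Gpr98 at the cell surface. Of the pathway from FGF receptors to MAP kinases, 15 of 35 genes had circRNAs, and of the 27 tested none differed between DP and PP, 1 was higher in N than in DP (a circRNA of the adaptor Gab1, named after its value was seen), and 1 was higher and 2 lower in N than in PP. The lower ones were overlapping circRNAs of Map2k1, the MAP kinase kinase, and CiCo_mm9_circ_006694 fell from 5.39 CPM ± 2.60 in PP to 1.58 ± 1.32 in N (log2 FC -2.05 ± 0.55, edgeR adjusted p = 0.0119). The circRNA of Plcg1, a phospholipase activated by the receptor, rose from 3.8 CPM in PP to 10.5 in N (log2 FC 1.33 ± 0.40, edgeR adjusted p = 0.0238), a call that was lost with total counts (edgeR adjusted p = 0.454) and without PP replicate 2 or N replicate 1. These calls depended on single libraries. With 1 library left out, the 3 calls between N and PP became 1 (PP replicate 1, N replicate 2 or N replicate 3), 2 (PP replicate 2 or N replicate 1) or 4 (PP replicate 3). The call between N and DP became 2 without N replicate 1 and 3 without PP replicate 3, and was lost without any other library. The median log2 FC of the list was -0.17 from PP to DP, 0.05 from DP to N and 0.01 from PP to N.

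Of 20 other receptor tyrosine phosphatases, 8 had circRNAs, and of the 13 tested 0 differed between DP and PP. From DP to N 1 was higher, that of Ptprn2, named after its value was seen. From PP to N, 2 overlapping circRNAs of Ptprs, a receptor for proteoglycans on axons, were higher, CiCo_mm9_circ_002767 with 77.5 CPM ± 6.20 in PP and 205 ± 109 in N (log2 FC 1.40 ± 0.37, edgeR adjusted p = 0.0109). The circRNA of Ptpru was lower, with 22.5 CPM ± 3.30 in PP and 6.31 ± 5.51 in N (log2 FC -2.01 ± 0.52, edgeR adjusted p = 0.00994). With total counts the Ptprs calls were lost (edgeR adjusted p = 0.256 for CiCo_mm9_circ_002767), and that of Ptpru without N replicate 3. The call of Ptprn2 was lost with any DP library or N replicate 1 left out. Without N replicate 1, 0 were higher and 2 lower in N than in DP, and without PP replicate 3, 1 was higher and 2 lower in N than in DP and 3 higher and 2 lower in N than in PP. The median log2 FC of the list was 0.40 in the first step, -0.40 in the second and 0.57 over both.

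Among ligands, partners and substrates of Ptprz1, most circRNAs that differed between N and the progenitors were of a single gene, Magi1. Of 14 circRNAs of 5 genes, 1 was higher in DP than in PP, and 2 were higher and 10 lower in N than in either progenitor, with 9 of the 10 being overlapping circRNAs of the scaffold protein Magi1. By gene, Cntn2 and Ncam1 were higher in N, Ptn and Magi1 were lower, and Ctnnb1 did not pass. The circRNA of pleiotrophin (Ptn), the secreted ligand of the receptor, had 51.9 CPM ± 20.7 in PP, 17.8 ± 3.67 in DP and 5.95 ± 2.55 in N. It fell from PP to N (log2 FC -3.06 ± 0.42, edgeR adjusted p = 9.19e-05) and from DP to N (-1.50 ± 0.40, edgeR adjusted p = 0.0167). The latter call was lost with total counts (edgeR adjusted p = 0.108) and without DP replicate 1, DP replicate 2 or N replicate 3. Its value from PP to DP, -1.55 ± 0.38, did not pass (edgeR adjusted p = 0.0557). The circRNA of contactin 2 (Cntn2), an adhesion molecule of axons that binds the receptor, had 1.03 CPM ± 0.10 in PP, 9.65 ± 3.85 in DP and 114 ± 17.5 in N. It rose in both steps (log2 FC 3.17 ± 0.43, edgeR adjusted p = 0.00130, and 3.56 ± 0.35, edgeR adjusted p = 2.65e-05). That of Ncam1, another adhesion molecule, rose from 1.96 CPM in DP to 15.2 in N (log2 FC 2.90 ± 0.33, edgeR adjusted p = 7.11e-05). Of Magi1, CiCo_mm9_circ_005589 fell from 11.8 CPM ± 1.82 in DP to 2.45 ± 0.646 in N (log2 FC -2.32 ± 0.34, edgeR adjusted p = 0.000275). Without N replicate 2, 8 differed between N and PP, and without N replicate 1 or PP replicate 3, 1 was higher and 1 lower in DP than in PP. The list had median log2 FCs of 0.49 in the first step, -2.03 in the second and -1.56 over both, and most of the values behind them are those of Magi1.

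Of 30 other adhesion G protein-coupled receptors, 8 had circRNAs, and of the 11 tested none differed between DP and PP, while 3 were higher and 1 lower in N than in either progenitor. Lower was that of Celsr1, a cadherin of planar cell polarity, with 20.5 CPM ± 5.35 in PP, 19.7 ± 1.92 in DP and 2.34 ± 0.736 in N (log2 FC from DP to N -3.17 ± 0.36, edgeR adjusted p = 6.43e-05). The circRNAs of the synaptic receptors Bai1 and Lphn3 rose from under 1 CPM in both progenitors to 12 ± 4.75 and 3.78 ± 0.967 CPM in N (log2 FC from PP to N 4.51 ± 0.64 and 3.74 ± 0.57, edgeR adjusted p = 0.000126 and 0.000205). That of Lphn2 rose from 11.1 CPM ± 3.96 in PP to 26.8 ± 3.54 in N (log2 FC 1.25 ± 0.32, edgeR adjusted p = 0.00950), and this call was lost with total counts (edgeR adjusted p = 0.377) and with at least 10 counts in every library. With any library but N replicate 2 or 3 left out, 16 or 17 circRNAs of the list passed the filter, and 5 to 10 differed between N and DP and 8 to 10 between N and PP. Median log2 FCs were -0.18, -0.18 and -0.55.

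**Figure D5:**
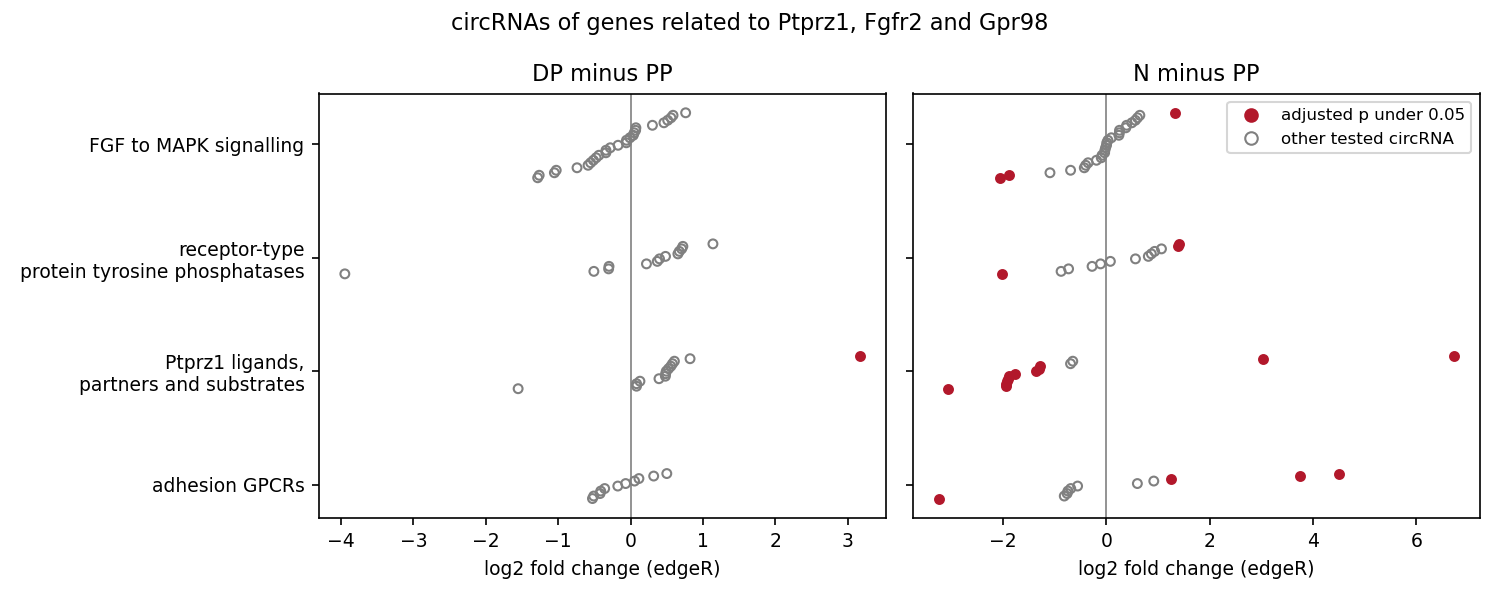
Fitted log2 FC (edgeR) of each tested circRNA of the lists, by list, from PP to DP (left) and from PP to N (right), with an adjusted p under 0.05 in red. From PP to DP only Cntn2 passed, and from PP to N 8 lie above 0 and 14 below, of which 9 are of Magi1.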

How the data were processed

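Counts were taken as deposited. The authors aligned 150-bp reads of strand-specific libraries, prepared without mRNA enrichment, to mm9 with gsnap, predicted circRNAs from unmapped reads with find_circ, and deposited whole-number counts from featureCounts, summed over the exons and introns of a circRNA that had passed their RPKM threshold, without normalization. How reads on several entries were counted is not given in the sources used here. The submitters' processing notes name Subread 1.6.0 and bcl2fastq 1.8.4.

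CPM used TMM effective sizes, and edgeR 4.0.16 (R 4.3.3) fitted all 9 libraries after filterByExpr, which 4406 circRNAs passed (13 of the 14). Pattern classes used DESeq2 1.42.0 without shrinkage. Other steps used Python 3.11.15, scipy 1.17.1, numpy 2.4.6, pandas 2.3.3 and matplotlib 3.10.9, and the fits were tested on simulated data. Genes, exons and sequences are from GENCODE vM1 on the same build, an older release than the authors' Ensembl v67. Starts were converted to 1-based. The tested log2 ratio of the Gpr98 pair used a pseudocount of 0.5, and the other ratios used none.

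The 3 genes, the lists and the alternatives were chosen with earlier results of these data known. Named from each list are the 4 circRNAs at most, 1 per gene, with the smallest adjusted p from PP to N, and for likeness the 3 with the highest r. The study calls the libraries of a cell type biological replicates, and which embryos each came from is not given in the sources used here. Alternatives were other scalings, DESeq2, other filters, a replicate block, other pseudocounts and left-out libraries, 3 of them added after the data were seen (the Gpr98 ratio in PP and DP alone, exonic length for the Ptprz1 ratio, and the divided Fgfr2 reads without PP replicate 3).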

Additional observations from a re-analysis of the deposited data

How the results depend on the processing

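The signs of the members' fold changes held in 467 of 470 values over 29 fold changes. The 3 exceptions were circPtprz1(14-17), CiCo_mm9_circ_005390, from PP to N, at -0.0501 with total counts, -0.06 without PP replicate 3 and -0.13 without N replicate 2, against 0.16, and between -0.13 and 0.41 with 1 library left out. With 1 library left out, members with DP below PP without overlap numbered 10 to 13, with N below DP 12 to 12, and with N below PP 12 to 13. Over all circRNAs, calls from PP to DP, DP to N and PP to N (82, 830 and 1236) were 22, 407 and 649 with total counts, 12, 134 and 282 with at least 10 counts in every library, and 659, 1600 and 1988 without both PP replicate 3 and N replicate 1. With 1 library left out they ranged from 37 to 183, 554 to 1239 and 984 to 1638, with the most from PP to DP (183) and from DP to N (1239) without PP replicate 3. The replicate number as a block gave 48 from PP to DP. Whether libraries of the same number are paired is not known. The mean r of deviations (-0.0383 for the same and 0.0275 for different numbers) cannot decide it with 3 libraries per cell type. List calls (1, 18 and 22) were 2 from PP to DP with DESeq2, 0, 8 and 8 with at least 10 counts, and 8, 34 and 36 without both libraries, and ranged from 1 to 2, 15 to 29 and 16 to 33 with 1 left out. Total counts moved the median log2 FC of all circRNAs to 0.02, -0.37 and -0.37. The p of the Gpr98 ratio was 0.471 with a pseudocount of 1, 0.667 within replicate blocks, and 0.154 to 0.786 with 1 library left out (exact permutation tests). In all of these the ratios of N are again set by the pseudocount. Of the nearest circRNAs, 1 of 3 was shared for circGpr98(64-74) when 0.1 was added in place of 1. Counts of 0 to 2 in N leave wide intervals for 4 Gpr98 circRNAs and only values from a floor, without an interval, for 2.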

Other observations

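The 9 entries inside the overlong transcript of Fgfr2 that begin and end at exons of other genes had mean levels in the order PP, DP, N in 4 cases, their highest mean in DP in 3 and in N in 1, and in none did all DP libraries lie below all PP libraries. The one with most counts, CiCo_mm9_circ_005765 of Fam53b (chr7:139951072-139971068), had 9.59 CPM ± 7.38 in PP, 12 ± 2.81 in DP and 8.17 ± 4.65 in N (SD, n = 3). Of Ctbp2, CiCo_mm9_circ_005781 had 4.94 CPM ± 1.21 in PP, 4.04 ± 0.807 in DP and 2.75 ± 0.871 in N.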
